A study of Mus musculus with 12 samples.

Results

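The genes described here are those of the mouse mitochondrial genome, taken as every symbol that starts with mt- in the table of normalised read counts. There are 37 of them among the 43279 genes of the table: 13 protein-coding (mRNA) genes, 2 ribosomal RNA (rRNA) genes and 22 transfer RNA (tRNA) genes. RNA was sequenced from 1000 bone marrow cells per mouse. The labels call them hematopoietic stem cells, and the sort kept cells that stained for KIT and SCA1 but not for lineage markers, FLT3 or CD48. The mice were adult and naive, either wild-type C57BL/6 animals (6 libraries) or Osmr-/- animals (5 libraries, numbered 1, 2, 3, 5 and 6 in the labels), and each library came from a different mouse. Osmr encodes a receptor subunit for the cytokine oncostatin M. Per the labels, cDNA was made and amplified with the SMART-Seq v4 kit and libraries were made with the Nextera XT kit. The comparison addresses which genes of the mitochondrial genome differ in stem cells of mice that lack the receptor. The labels do not say whether the Osmr-/- mice were littermates of the controls.

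The mitochondrial genome is a small circle that each cell holds in many copies. Both of its strands are transcribed as long precursors that cover many genes, and the tRNAs that lie between the other genes are cut out, which releases the rRNAs and mRNAs. The mRNAs encode core subunits of respiratory complexes I, III and IV and of the ATP synthase (complex V), while all other subunits, and the proteins that copy, transcribe and translate this genome, are encoded in the nucleus. Hematopoietic stem cells are known for relying little on respiration while quiescent and for raising it on activation. Because the genes of a strand share a precursor, they are not independent of each other, and their number says nothing about the number of mice.

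The libraries held 9.50 to 22.1 M reads assigned to genes (M standing for mega), with a median of 12.5 M in wild type and 10.9 M in Osmr-/-. Osmr had 13 reads in all 6 wild-type libraries together and 4 in the 5 Osmr-/- libraries, so its counts give no check of the genotype labels. Summed markers of hematopoietic stem cells ran from 20370 to 28146 normalised counts in wild type and from 20900 to 31467 in Osmr-/-, and each of the 12 markers was detected in every library. Of 12 erythroid markers, 11 had a lower mean in Osmr-/-. The exception, Hbb-bt, ran from 150 to 697 normalised counts in wild type and from 707 to 1567 in Osmr-/-. The sum of the 12 ran from 2847 to 26431 normalised counts in wild type and from 1817 to 3624 in Osmr-/-. Car1 alone ran from 1711 to 22648 in wild type and from 225 to 2601 in Osmr-/-. Alas2 and Slc4a1 were at 0 in 4 libraries of each genotype. Summed granulocyte and monocyte markers were at 26125 in Osmr-/- 3, 10528 to 11400 in the other Osmr-/- libraries and 8937 to 17202 in wild type. Osmr-/- 3 had S100a8 at 10780 and S100a9 at 7277, while its Lyz2, at 3702, was the lowest of all libraries. The part of erythroid, granulocyte or monocyte cells in the mitochondrial values was not tested. Libraries numbered 1 to 3 and those numbered 4 to 6 differed in the share of nuclear Malat1 RNA, at 9975 to 109658 normalised counts in the lower set and 130004 to 230983 in the upper set. Malat1 also differed by genotype inside each set with no overlap and in opposite directions. It was at 9975 to 51523 in wild type and 72916 to 109658 in Osmr-/- among libraries 1 to 3, and at 175463 to 230983 and 130004 to 173014 among libraries 4 to 6. Its part in the mitochondrial values was not tested. The labels name no batch, and these 2 sets were defined from the data.

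Reads from the mitochondrial genome made up 5.88% ± 1.91 (SD, n = 6) of all gene-assigned reads in wild type and 7.61% ± 0.483 (SD, n = 5) in Osmr-/-. The wild-type libraries had a lowest share of 3.91%, a median of 5.46% and a highest share of 8.85%, and the Osmr-/- libraries had 7.33%, 8.22%, 7.36%, 8.04% and 7.12%. The ranges overlapped: wild type 3 and wild type 6 lay among or above the Osmr-/- libraries, and the other 4 wild-type libraries lay below all 5. The mean difference was 1.74 percentage points and was 2.47 points among libraries 1 to 3 and 0.988 points among libraries 4 to 6. The share is a sum over genes of few precursors and was described without a test. In bulk samples, fewer mitochondria-rich cells and less mitochondrial RNA per cell cannot be told apart.

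The 3 RNA classes were distributed differently. The 13 mRNA genes took 3.23% ± 1.68 (SD, n = 6) of all reads in wild type and 5.27% ± 1.72 (SD, n = 5) in Osmr-/-. The 2 rRNA genes took 2.64% ± 2.18 and 2.32% ± 1.66, and the 22 tRNA genes 0.0130% ± 0.0231 and 0.0234% ± 0.0311. The mRNA share had a higher mean in Osmr-/- within each number set, with means of 4.36% against 6.49% among libraries 1 to 3, which overlapped, and values of 1.65% to 2.86% against 3.38% to 3.51% among libraries 4 to 6, which did not.

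**Figure D1:**
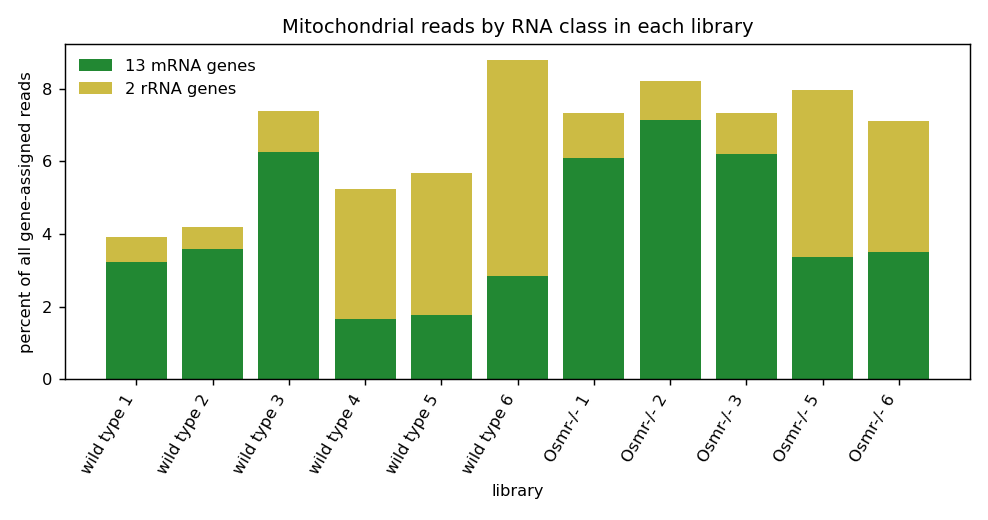
Percent of all gene-assigned reads on the 13 mRNA genes (green) and the 2 rRNA genes (yellow) of the mitochondrial genome, with 1 stacked bar per library; the tRNA genes are not drawn, being at most 0.0788%. Libraries 1 to 3 of both genotypes are mostly mRNA and libraries 4 to 6 hold a large rRNA share, and within each of these sets the mRNA bars are mostly taller in Osmr-/-.

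The split between mRNA and rRNA followed the label numbers. Libraries 1 to 3 had 0.165 to 0.209 rRNA reads per mRNA read in wild type and 0.148 to 0.201 in Osmr-/-. Libraries 4 to 6 of the wild type had 2.18, 2.18 and 2.08, and Osmr-/- 5 and 6 had 1.36 and 1.03. All 5 libraries of the upper set lay above all 6 of the lower set. The sets were defined from the data, so their separation is a description and no test. Within the upper set both Osmr-/- libraries lay below the 3 wild-type libraries. The rRNA genes also differed from each other across the sets, with 2.15 to 2.78 mt-Rnr2 reads per mt-Rnr1 read in libraries 1 to 3 and 3.71 to 4.66 in libraries 4 to 6. The source of this split was not tested.

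Gene by gene, 25 of the 37 genes had 10 or more normalised counts in 5 or more libraries and were tested for a genotype difference. The test was limma on log2(normalised count + 1) over 13358 genes, with p-values adjusted by Benjamini-Hochberg and called under 0.05. None of the 25 was called, and 0.00749% of all tested genes were called higher (1 gene; 2 were called lower). The lowest adjusted p in limma was 0.121, for mt-Nd2 and mt-Ta. The log2 difference, Osmr-/- minus wild type, was above 0 for 25 of 25, with a median of 1.31, while 46.8% of all tested genes were above 0, with a median of -0.05. At an unadjusted p under 0.05 there were 10 of these genes, all with a higher mean in Osmr-/-, against 7.5% of all tested genes in that direction.

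The filter on low counts bears on these numbers. Of the 25 genes, 15 were at the minimum in every library, 9 fell below it in at least 1 wild-type library and in no Osmr-/- library, and 1 (mt-Atp8) fell below it in both genotypes. Over the 15 genes the filter did not touch, the log2 differences ran from 0.13 to 1.67 with a median of 0.93, and 7 had an unadjusted p under 0.05. The other 12 genes had 0 to 35 reads over all libraries. Fitted with no filter, 31 genes with any read gave 29 above 0 and 2 below 0, and limma called 0 of them, where 0% of 26110 genes were called higher.

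**Figure D2:**
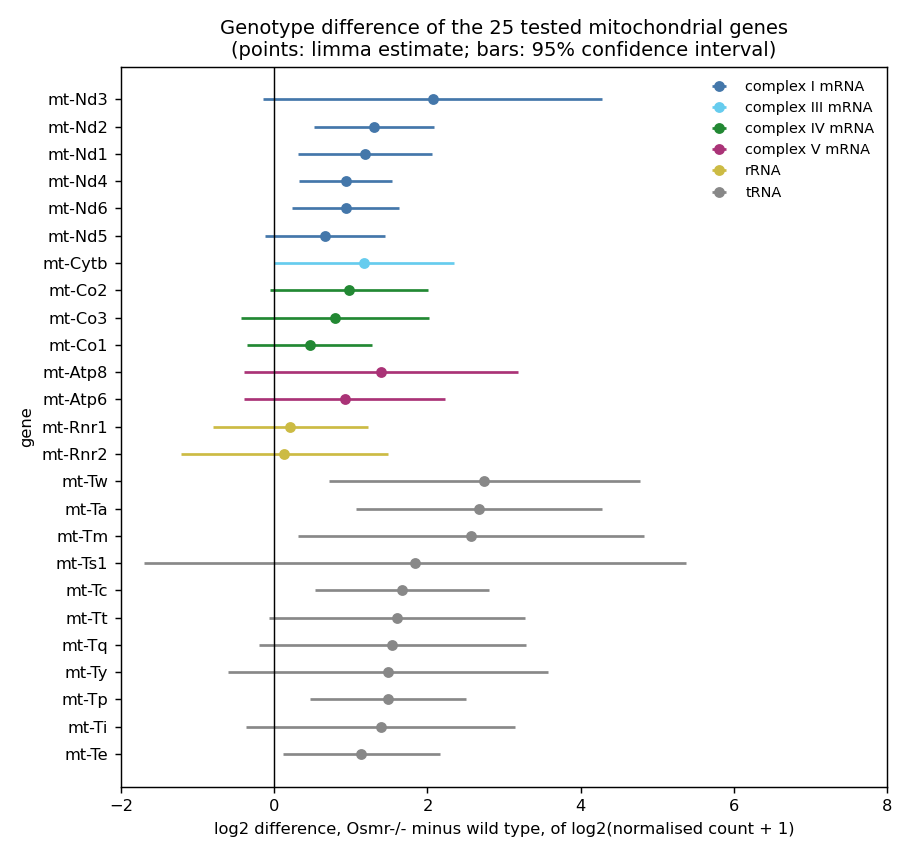
Log2 difference, Osmr-/- minus wild type, of log2(normalised count + 1) for the 25 tested genes of the mitochondrial genome, grouped by complex and RNA class. Points are limma estimates and bars are 95% confidence intervals: all 25 points lie right of 0, from 0.13 for mt-Rnr2 to 2.74 for mt-Tw, and many bars cross it.

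Other models drew the line in another place. With a covariate for the number sets, limma called 2 of the 25 genes, both of complex I, where 0.996% of all genes were called higher. They were mt-Nd1 at a log2 difference of 1.07 (adjusted p 0.0481) and mt-Nd2 at 1.21 (adjusted p 0.0383). The sets were defined from these same data, so the calls made with them are after the fact. DESeq2 on the recovered whole reads called 4, namely mt-Nd2, mt-Ta, mt-Tc and mt-Tp, where 1.51% of genes were called higher. The authors' deposited table, from their DESeq2 comparison, listed the same 4 past an adjusted p of 0.05, where 1.67% of its genes were past it and higher in Osmr-/-. With the sign turned to Osmr-/- over wild type, the log2 fold changes of the authors' deposited table were 1.62 for mt-Ta (adjusted p 0.0142), 1.27 for mt-Tc (0.0205), 1.15 for mt-Tp (0.0385) and 1.07 for mt-Nd2 (0.0415). Of the 24 genes of this genome with an adjusted p in the authors' deposited table, 22 were above 0, and the 2 rRNA genes were at -0.04 and -0.06. The test with edgeR on the recovered reads called 0, where 0.00749% of genes were called higher.

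Within the number sets the direction was mostly kept and nothing was called. In libraries 1 to 3, 25 of 25 differences were above 0 with a median of 1.23, and in libraries 4 to 6, 24 of 25 were, with a median of 0.97 and mt-Rnr1 at -0.18. Every Osmr-/- library lay above every wild-type library for 12 of the 25 genes in libraries 1 to 3, where 13.5% of all tested genes did so, and for 15 of the 25 in libraries 4 to 6, where 14.4% did. With 3 libraries against 3, and 3 against 2, limma called 0 genes of any kind in either set, although 2933 and 1384 of all genes had an unadjusted p under 0.05.

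Complex I, the NADH dehydrogenase that feeds electrons from NADH into the chain, has 7 subunits encoded here. Their reads took 1.00% ± 0.460 (SD, n = 6) of all reads in wild type and 1.81% ± 0.516 (SD, n = 5) in Osmr-/-. Values in the 2 genotypes overlapped over all 11 libraries, through wild type 3 alone, and did not overlap within either number set. Of the 7 genes, 6 were tested, 0 were called and 4 had an unadjusted p under 0.05, with differences from 0.66 to 2.07.

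The gene mt-Nd2 encodes a membrane-arm subunit that takes part in proton pumping. Its normalised count ran from 5801 through a median of 9678 to 23165 in wild type, and was 28814, 31852, 40675, 15747 and 14266 in Osmr-/-. Only wild type 3 reached into the Osmr-/- range, above libraries 5 and 6. The log2 difference was 1.31 with a standard error of 0.37, a 2.47-fold higher value on the log2(count + 1) scale, at an adjusted p of 0.121 in limma.

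The gene mt-Nd1 encodes the subunit next to the ubiquinone binding site. It had 20217, 39770 and 99000 normalised counts as the lowest, median and highest wild-type values, and 103164, 124334, 128336, 51473 and 52688 in Osmr-/-. The ranges overlapped only because wild type 3 lay above Osmr-/- 5 and 6. Its log2 difference was 1.18 (SE 0.41, adjusted p 0.168 in limma).

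The gene mt-Nd4 encodes another of the proton-pumping subunits, and mt-Nd4l, whose 3' end it overlaps by 7 bases, a small one. The counts of mt-Nd4 were 11850, 16328 and 33253 as lowest, median and highest in wild type and 37864, 41706, 41996, 27620 and 25586 in Osmr-/-. Again wild type 3 alone reached into the Osmr-/- values. The log2 difference was 0.93 (SE 0.29, adjusted p 0.135 in limma). The gene mt-Nd4l had 8 reads in all libraries together and was not tested.

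The gene mt-Nd6 is the sole mRNA gene on the other strand. Its counts were 6799, 9535 and 23206 as lowest, median and highest in wild type, and 23618, 27689, 25658, 13140 and 13612 in Osmr-/-. The log2 difference of 0.93 (SE 0.33, adjusted p 0.172 in limma) was close to that of mt-Nd4 on the opposite strand. Whether strand was used in the counting is not given in the sources here, so reads of mt-Nd6 and of a precursor running the other way through it cannot be told apart. It overlaps mt-Nd5 by 14 bases.

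The gene mt-Nd5, which encodes the largest membrane-arm subunit, had 14017, 26618 and 61075 normalised counts as lowest, median and highest in wild type, and 52144, 63097, 49787, 29619 and 24532 in Osmr-/-. Its difference of 0.66 (SE 0.37, adjusted p 0.368 in limma) was the lowest of complex I. The gene mt-Nd3, a small subunit near the junction of the complex's arms, had far fewer reads, at 1.01, 21.3 and 106 in wild type and 129, 254, 251, 19.6 and 16.6 in Osmr-/-. Its libraries split by label number more than by genotype, since every library of the set 1 to 3 lay above every library of the set 4 to 6. The log2 difference of mt-Nd3 was 2.07 (SE 1.04, adjusted p 0.310 in limma).

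Complex III, which passes electrons from ubiquinol to cytochrome c, has 1 gene here, mt-Cytb. It took 1.16% ± 0.820 (SD, n = 6) of all reads in wild type and 2.15% ± 0.943 (SD, n = 5) in Osmr-/-. Its normalised counts were 38252, 119932 and 332963 as lowest, median and highest in wild type, and 318562, 430967, 315268, 130105 and 116977 in Osmr-/-. Wild type 3 lay above 4 of the 5 Osmr-/- libraries, and libraries 1 to 3 lay above libraries 4 to 6 in all cases. The log2 difference was 1.17 (SE 0.55, adjusted p 0.279 in limma).

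Complex IV is cytochrome c oxidase, whose catalytic core is formed by the products of mt-Co1, mt-Co2 and mt-Co3. Together they took 1.07% ± 0.426 (SD, n = 6) of all reads in wild type and 1.31% ± 0.306 (SD, n = 5) in Osmr-/-, nearly all of it mt-Co1. The gene mt-Co1 encodes the subunit that holds the heme and copper site where oxygen is reduced. It had 60063, 113291 and 225363 normalised counts as lowest, median and highest in wild type, and 187374, 226320, 157321, 114711 and 102880 in Osmr-/-. These ranges overlapped broadly, and the log2 difference of 0.46 (SE 0.38, adjusted p 0.547 in limma) was the lowest of the 12 tested mRNA genes. It was 0.29 without wild type 4.

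The gene mt-Co2, whose product takes electrons from cytochrome c, had 27.2, 42.0 and 109 in wild type and 112, 118, 117, 83.4 and 66.4 in Osmr-/-, a log2 difference of 0.98 (SE 0.49, adjusted p 0.303 in limma). Wild type 3 and wild type 6 reached into the Osmr-/- values. The gene mt-Co3, a structural subunit of the core, had 20.2, 52.8 and 183 in wild type and 117, 143, 135, 56.6 and 53.7 in Osmr-/-. Wild type 3 was the highest of all 11 libraries, and the log2 difference was 0.80 (SE 0.58, adjusted p 0.487 in limma), or 0.52 without wild type 4.

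Complex V, the ATP synthase, has 2 genes here that overlap by 43 bases. The gene mt-Atp6 encodes the proton channel subunit and had 13.1, 28.8 and 90.7 normalised counts in wild type and 70.2, 91.1, 81.2, 34.0 and 36.1 in Osmr-/-. The gene mt-Atp8, a small subunit of the membrane part, had 1.55, 7.77 and 26.2 in wild type and 26.1, 36.7, 41.2, 14.4 and 5.85 in Osmr-/-. Both overlapped between genotypes, with log2 differences of 0.92 (SE 0.62, adjusted p 0.450 in limma) and 1.40 (SE 0.84, adjusted p 0.400 in limma). Counts as low as those of mt-Atp8 lie near the 3-read floor, which was 1.56 to 3.87 normalised counts in these libraries.

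The 2 rRNA genes, which form the small and large subunits of the mitochondrial ribosome, were the 2 tested genes with the lowest differences. The gene mt-Rnr1 had 18576, 56969 and 136859 normalised counts as lowest, median and highest in wild type and 45729, 41866, 44256, 100088 and 63806 in Osmr-/-. The gene mt-Rnr2 had 48915, 185598 and 508040 in wild type and 105489, 98594, 95029, 419023 and 297525 in Osmr-/-. For both genes the 6 libraries of the lower number set lay below the 5 of the upper set, whatever the genotype. Their log2 differences were 0.21 (SE 0.47, adjusted p 0.858 in limma) and 0.13 (SE 0.64, adjusted p 0.937 in limma), and the sign turned under quantile scaling, to -0.25 and -0.14, and under edgeR and DESeq2. By number set mt-Rnr1 was at 0.77 among libraries 1 to 3 and -0.18 among libraries 4 to 6, and mt-Rnr2 at 0.61 and 0.01.

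Within the mitochondrial mRNA reads the make-up also differed between the genotypes. The share of mt-Co1 was 28.2%, 35.3% and 38.2% as lowest, median and highest in wild type and 24.9%, 23.9%, 20.7%, 30.0% and 29.3% in Osmr-/-. Its means were 34.6% ± 3.86 (SD, n = 6) and 25.8% ± 3.88 (SD, n = 5), and the genotypes overlapped only because wild type 3 lay below Osmr-/- 5 and 6. Within libraries 1 to 3 and within libraries 4 to 6 they did not overlap, at means of 32.4% against 23.2% and 36.8% against 29.7%.

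The share of mt-Nd1 moved the other way and separated the genotypes in all 11 libraries. It was 9.75%, 12.3% and 13.1% as lowest, median and highest in wild type and 13.7%, 13.1%, 16.9%, 13.5% and 15.0% in Osmr-/-, with means of 11.8% ± 1.33 (SD, n = 6) and 14.4% ± 1.55 (SD, n = 5). The gap is narrow, as the highest wild-type and the lowest Osmr-/- value are equal at this rounding. The share of mt-Cytb was 32.9% ± 7.79 (SD, n = 6) in wild type and 39.3% ± 5.39 (SD, n = 5) in Osmr-/-, and it was higher in libraries 1 to 3 than in libraries 4 to 6. The share of mt-Nd5 was 8.20% ± 0.841 and 6.98% ± 0.464, and that of mt-Nd2 3.12% ± 0.581 and 4.15% ± 0.738. Shares add up to a fixed total, so a lower share of 1 gene raises the others, and no test was made on them.

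**Figure D3:**
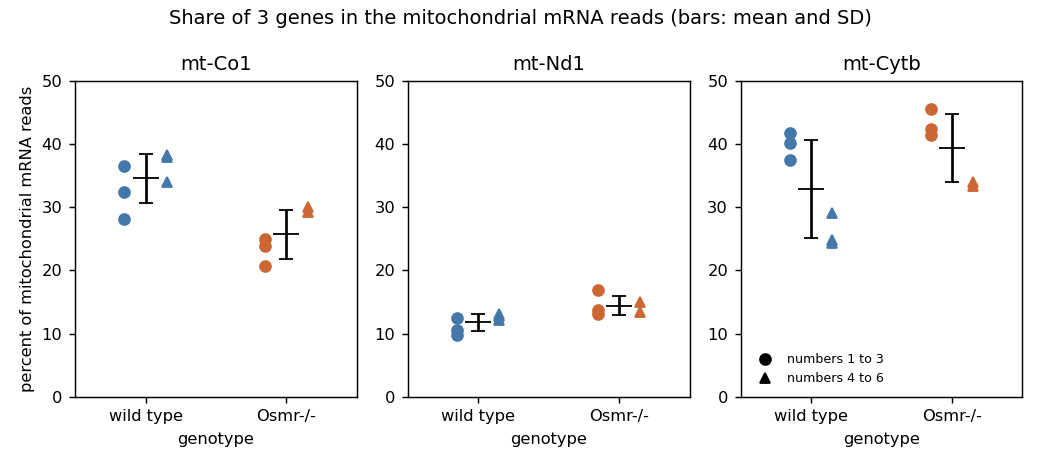
Share of mt-Co1, mt-Nd1 and mt-Cytb in the reads of the 13 mitochondrial mRNA genes, in percent, by genotype, with 1 point per library (circles for libraries 1 to 3, triangles for 4 to 6) and bars for the mean and SD. The mt-Co1 points are lower in Osmr-/- within each set, the mt-Nd1 points are higher, and the mt-Cytb points lie apart by set.

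Levels per length spanned a wide range although the genes of a strand share their precursor. Per kilobase, the mean normalised count over all 11 libraries was 168503 for mt-Cytb, 132812 for mt-Rnr2, 89315 for mt-Co1, 68492 for mt-Nd1 and 63192 for mt-Rnr1. The next mRNA genes were mt-Nd6 at 30156, mt-Nd5 at 19695, mt-Nd4 at 19093 and mt-Nd2 at 17285 per kilobase, which lie close together beside SDs of 5682 to 13256 within a genotype. The remaining mRNA genes were all far lower per kilobase, at 229 for mt-Nd3, 110 for mt-Co2, 106 for mt-Co3, 81.3 for mt-Atp8, 71.7 for mt-Atp6 and 2.61 for mt-Nd4l. These 6 lie side by side on the genome, from position 7013 to 10173 on chromosome M.

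Most of that stretch is also annotated in the nuclear genome. Each annotated mitochondrial transcript was cut into all windows of 50 bases, and each window was looked for in all other annotated transcripts (GENCODE M21, GRCm38). The share of windows found elsewhere was 100% for mt-Co2, 99.9% for mt-Co3, 99.5% for mt-Atp6, 98.8% for mt-Nd4l and 98.0% for mt-Nd3. It was 62.2% for mt-Nd4, 51.1% for mt-Co1, 8.19% for mt-Nd2, 7.61% for mt-Nd5 and 1.04% for mt-Rnr2. It was 0% for mt-Rnr1, mt-Nd1, mt-Nd6, mt-Cytb, mt-Atp8 and all 22 tRNA genes. The gene mt-Atp8 and the tRNA genes mt-Ts1, mt-Td, mt-Tk, mt-Tg and mt-Tr would lie between annotated pieces of the copy. These pieces were searched as transcripts only, so copies of these genes between them were not looked for.

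The copy is a block on the minus strand of chromosome 1, from 24611535 to 24616197, annotated as 7 pseudogenes. They match the mitochondrial genes in their order: Gm29216 to mt-Co1, Gm28661 to mt-Co2, Gm10925 to mt-Atp6, Gm28437 to mt-Co3, Gm28438 to mt-Nd3, Gm10222 to mt-Nd4l and Gm28439 to mt-Nd4. Gm28661 was identical to mt-Co2 over 681 bases, Gm10925 to mt-Atp6 over 678, Gm28437 to mt-Co3 over 783 and Gm28439 to mt-Nd4 over 876. The start of mt-Co2 (chrM:7013-7072, plus strand) and of Gm28661 (chr1:24615506-24615565, minus strand) are shown because a read that lies inside them matches both places equally. They are followed by a stretch of mt-Nd3 (chrM:9459-9501, plus strand) and Gm28438 (chr1:24613077-24613119, minus strand), which differ over 345 bases by 1 substitution, T3C, in capitals, counted from the first base of the gene.
mt-Co2: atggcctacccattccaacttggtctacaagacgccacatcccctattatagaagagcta
Gm28661: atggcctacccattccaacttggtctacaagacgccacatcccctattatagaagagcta
mt-Nd3: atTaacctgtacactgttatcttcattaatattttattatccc
Gm28438: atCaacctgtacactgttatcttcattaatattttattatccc

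Reads were listed under both the mitochondrial genes and their copies. The 7 copies on chromosome 1 together had 159, 473 and 1015 normalised counts as lowest, median and highest in wild type and 843, 992, 1099, 451 and 482 in Osmr-/-. Gm28437 had more counts than mt-Co3, whose length is nearly the same, in all 11 libraries, at 89.3 to 657 in wild type and 280 to 681 in Osmr-/-. Gm10925 had 21.0 to 155 in wild type and 77.2 to 291 in Osmr-/-, also above mt-Atp6 in each library.

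The genotype differences of the 5 copies tested were above 0, as were those of the genes they match. In limma, Gm10925 was at a log2 difference of 1.55 (SE 0.56, adjusted p 0.181), Gm28661 at 1.17 (SE 0.56, adjusted p 0.288), Gm28437 at 0.66 (SE 0.51, adjusted p 0.518), Gm28439 at 0.58 (SE 0.73, adjusted p 0.711) and Gm29216 at 0.40 (SE 0.59, adjusted p 0.755). The sources used here do not say how reads aligning to both places were counted. The levels and differences of mt-Co2, mt-Co3, mt-Atp6, mt-Nd3 and mt-Nd4l are therefore uncertain, and those of mt-Nd4 and mt-Co1 partly so. The same may hold for mt-Atp8 and mt-Ts1, as copies between the annotated pieces were not looked for.

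A second set of pseudogenes on chromosome 2 includes Gm13340, whose sequence shares 411 windows with mt-Co1. It had 1495, 4657 and 9660 normalised counts in wild type 1, wild type 2 and Osmr-/- 1, and 47.3 to 247 in the other 8 libraries. The 3 high libraries come from both genotypes and from the lower number set, and its log2 difference was 0.29 (SE 1.35, adjusted p 0.935 in limma). Its neighbour Gm13341, which shares 224 windows with mt-Co2, had 69.8 to 391 in wild type and 184 to 317 in Osmr-/- (log2 difference 0.99, adjusted p 0.259 in limma).

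**Figure D4:**
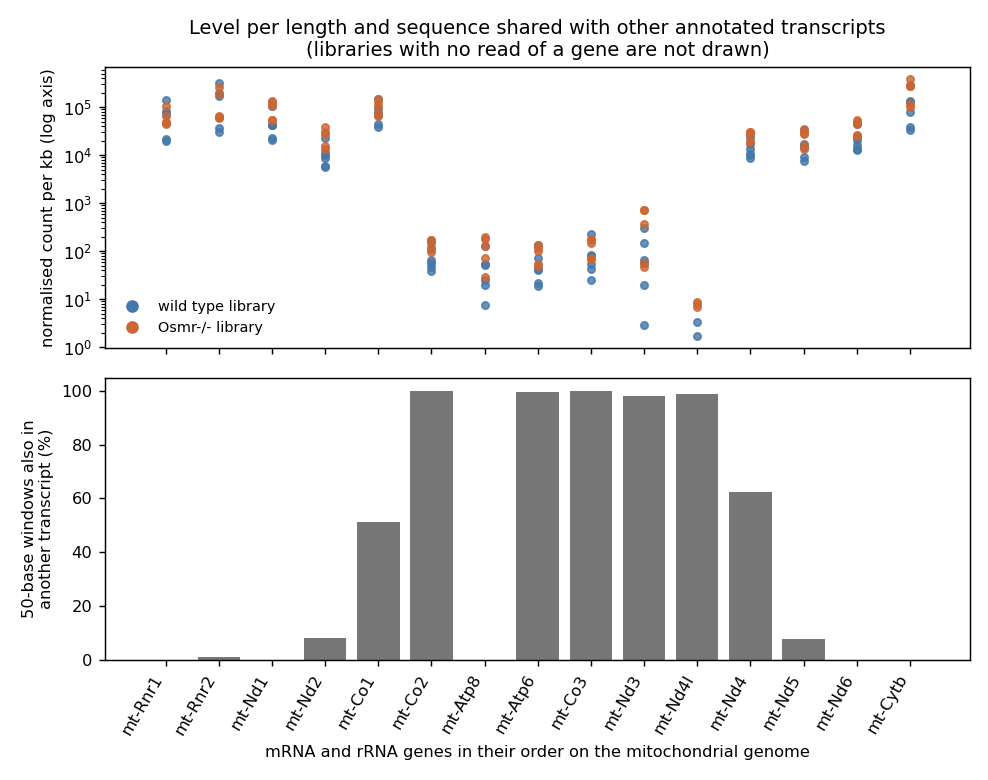
Top, normalised count per kilobase (log axis) of the mRNA and rRNA genes in genome order, with 1 point per library by genotype; bottom, percent of 50-base windows of each gene found in another annotated transcript. The 6 genes of lowest level, from mt-Co2 to mt-Nd4l, include the 5 with 98.0% to 100% shared windows. The sixth, mt-Atp8, is drawn at 0%, but it would lie between annotated pieces of the copy, where no search was made.

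The 22 tRNA genes had few reads in these libraries of polyadenylated RNA. Of them 11 were tested and 11 were not. The untested ones had 0 to 35 reads over all libraries, and the 3 with most were mt-Tl1 (leucine, 35 reads), mt-Tn (asparagine, 19) and mt-Tf (phenylalanine, 9). Strand position went with detection. Of the 11 tested tRNA genes, 10 lie directly beside a gene on the opposite strand (mt-Tc does not). Of the 11 untested ones, 1 does (mt-Td). Between annotated pieces of the chromosome 1 copy would lie mt-Td, mt-Tk, mt-Tg and mt-Tr, all at 0 reads, and mt-Ts1, which was tested. Outside that copy, mt-Th and mt-Ts2 also had 0 reads. Neither position was tested as a source of low detection. By strand, 7 of the 8 tRNA genes on the minus strand and 4 of the 14 on the plus strand were tested. Without strand in the counts, reads of a tRNA gene cannot be told apart from those of a transcript that runs through it on the opposite strand.

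The tested tRNA genes had log2 differences of 1.14 to 2.74 with a median of 1.60, and limma called 0 of the 11. For 3 of them, mt-Ta, mt-Tc and mt-Tw, no Osmr-/- library overlapped with a wild-type library, which was true of 1.09% of all tested genes in this direction. Summed without mt-Ts1, the tRNA genes had 133, 323 and 806 normalised counts as lowest, median and highest in wild type and 941, 1012, 1683, 707 and 631 in Osmr-/-.

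The tRNAs called by DESeq2, and mt-Ts1, whose reads were the most uneven, are shown with the sequence of their gene (GENCODE M21, GRCm38), all on the minus strand, with the anticodon in capitals. They lie at chrM:5018-5086 (mt-Ta, alanine), chrM:5192-5257 (mt-Tc, cysteine), chrM:15356-15422 (mt-Tp, proline) and chrM:6870-6938 (mt-Ts1, serine).
mt-Ta: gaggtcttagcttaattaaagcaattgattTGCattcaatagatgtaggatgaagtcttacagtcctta
mt-Tc: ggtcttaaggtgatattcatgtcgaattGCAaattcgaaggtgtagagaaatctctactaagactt
mt-Tp: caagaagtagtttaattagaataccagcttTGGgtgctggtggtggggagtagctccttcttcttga
mt-Ts1: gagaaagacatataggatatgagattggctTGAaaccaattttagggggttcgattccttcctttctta

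The gene mt-Ta had 1.04, 16.8 and 30.2 normalised counts as lowest, median and highest in wild type and 63.4, 112, 137, 52.5 and 55.6 in Osmr-/-. All 5 Osmr-/- libraries lay above all 6 wild-type libraries, with a log2 difference of 2.67 (SE 0.75, adjusted p 0.121 in limma). The difference was 2.15 without wild type 1, the lowest library. The gene mt-Tc had 10.1, 31.4 and 63.5 in wild type and 83.8, 95.8, 147, 95.7 and 83.9 in Osmr-/-. It did not overlap either, and its difference was 1.67 (SE 0.53, adjusted p 0.147 in limma).

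The gene mt-Tp had 25.2, 72.7 and 153 normalised counts in wild type and 211, 220, 291, 187 and 98.6 in Osmr-/-. Osmr-/- 6 lay below wild type 3, and the log2 difference was 1.48 (SE 0.48, adjusted p 0.147 in limma). The gene mt-Tw (tryptophan) had 0, 34.5 and 66.5 in wild type and 102, 94.6, 228, 81.3 and 106 in Osmr-/-, with a difference of 2.74 (SE 0.96, adjusted p 0.169 in limma). Without wild type 1, the library at 0, the difference was 1.92. This gene, mt-Tw, lies beside mt-Ta on the opposite strand and overlaps the end of mt-Nd2 by 2 bases.

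The gene mt-Ts1 overlaps the end of mt-Co1 by 3 bases on the opposite strand. It had 6125 normalised counts in wild type 6 and 8222 in Osmr-/- 5, and 3.64 to 123 in the other 5 wild-type libraries and 28.3 to 135 in the other 4 Osmr-/- libraries. In those 2 libraries it took 94.0% and 92.1% of all mitochondrial tRNA reads, against 2.66% to 13.2% in the other 9. Its log2 difference of 1.84 (SE 1.66, adjusted p 0.587 in limma) was 0.49 without Osmr-/- 5, 3.20 without wild type 6 and 1.12 without wild type 1.

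Of the other 6 tested tRNA genes, mt-Tm (methionine) had a log2 difference of 2.57, mt-Tt (threonine) of 1.60, mt-Tq (glutamine) of 1.54, mt-Ty (tyrosine) of 1.49, mt-Ti (isoleucine) of 1.39 and mt-Te (glutamate) of 1.14. Their adjusted p in limma ran from 0.232 for mt-Tm to 0.442 for mt-Ty. All 6 overlapped between the genotypes. Wild type 1 was the lowest of all 11 libraries for mt-Ti, mt-Tq, mt-Tm, mt-Ty and mt-Tt, at 0 to 1.04 normalised counts. Without wild type 1 the log2 differences were 0.75 for mt-Ti, 0.82 for mt-Tq and 0.67 for mt-Ty.

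**Figure D5:**
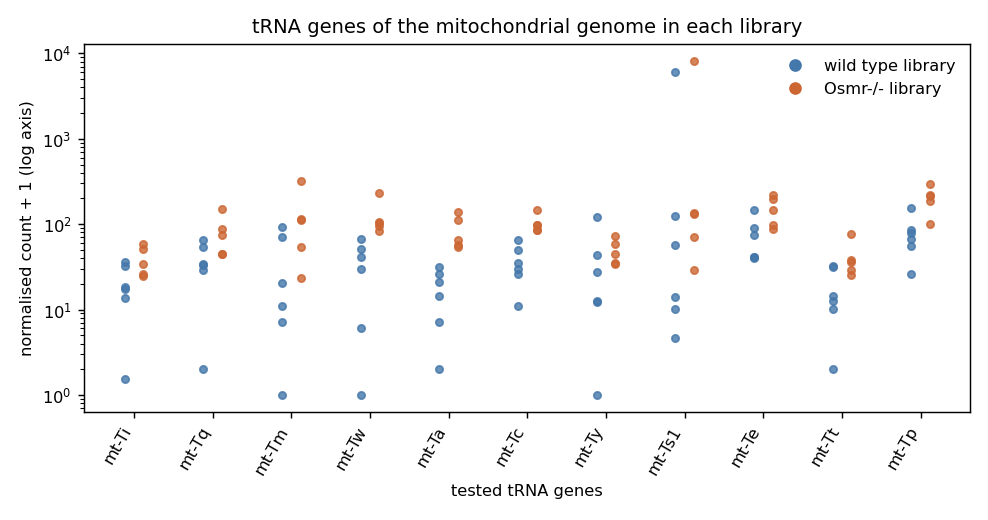
Normalised count plus 1 (log axis) of the 11 tested mitochondrial tRNA genes, with 1 point per library by genotype. For mt-Ta, mt-Tc and mt-Tw the Osmr-/- points lie above all wild-type points, and mt-Ts1 shows 2 libraries, wild type 6 and Osmr-/- 5, far above the rest.

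Nuclear genes that act on the mitochondrial genome and its RNA were taken from 7 lists of 110 symbols, of which 104 were tested. Limma called 0 of them, where 0.0225% of all genes were called in either direction, and 17 had an unadjusted p under 0.05, 4 of them higher in Osmr-/-, where 18% of all tested genes had such a p and 7.5% were higher with it. Their log2 differences were above 0 for 46 and below 0 for 58, with a median of -0.11 beside -0.05 over all tested genes and 1.31 over the 25 genes of the mitochondrial genome. By number set the median of the 104 was -0.32 in libraries 1 to 3 and 0.02 in libraries 4 to 6.

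Genes of transcription and the nucleoid had a median of -0.19 (11 of 11 tested, 4 above 0). The sign of this median turned with the number set, at -0.58 with 1 gene above 0 in libraries 1 to 3 and 0.09 with 7 above 0 in libraries 4 to 6. The gene for the ribosome assembly factor Mterf4 had 220 to 364 normalised counts in wild type and 20.4, 105, 47.7, 357 and 185 in Osmr-/- (log2 difference -1.77, SE 0.57, adjusted p 0.149 in limma). That of Tfam, the protein that packs the genome and starts its transcription, was at -0.19, and that of Polrmt, its RNA polymerase, at 0.32.

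Among 22 tested genes of RNA processing and stability, with a median of 0.05, Slirp stood first by p. It encodes the partner of Lrpprc in the complex that keeps mitochondrial mRNAs stable. Slirp had 1236, 1806 and 4452 normalised counts as lowest, median and highest in wild type and 4728, 5704, 4690, 2992 and 2609 in Osmr-/-, a log2 difference of 1.01 (SE 0.33, adjusted p 0.152 in limma). Wild type 2 and wild type 3 reached into the Osmr-/- values. Lrpprc itself was at -0.10 (SE 0.32), Pde12, which removes poly(A) tails, at 0.83, and the oligoribonuclease gene Rexo2 at -0.69.

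Genes of mitochondrial DNA maintenance had a median of -0.09 over 15 tested. Dguok, the kinase for purine deoxynucleosides, had 1696 to 3246 in wild type and 1567, 1783, 1360, 1550 and 1169 in Osmr-/- (log2 difference -0.72, SE 0.22, adjusted p 0.135 in limma). It was the 1 nuclear gene of these lists that limma called with the data-derived number sets as a covariate (-0.77, adjusted p 0.0401). In that fit 2.52% of all genes were called in either direction. Mpv17, an inner membrane protein gene needed to keep the DNA, was at -0.89 (adjusted p 0.129 in limma) and Peo1, the helicase, at -1.49.

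Of the biogenesis regulators 9 were tested, with a median of 0.34. Yy1, a transcription factor gene, had 542 to 1364 in wild type and 1921, 1595, 1848, 1267 and 1344 in Osmr-/- (log2 difference 0.97, SE 0.28, adjusted p 0.124 in limma), and the coactivator genes Ppargc1b and Pprc1 were at 1.57 and 0.59. The translation factors had a median of -0.17 over 12 tested. Taco1, an activator of the translation of mt-Co1, had 34.8, 45.2 and 221 as lowest, median and highest in wild type and 0, 0, 6.44, 53.5 and 4.88 in Osmr-/-. Its log2 difference of -3.67 (SE 1.01, adjusted p 0.114 in limma) had the lowest p of the 7 lists, and only Osmr-/- 5 reached into the wild-type range.

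The tRNA synthetases had a median of -0.21 over 22 tested, with Kars at -0.56 (adjusted p 0.225 in limma), Lars2 at -0.93 and Gatb at -1.14. The genes of tRNA and rRNA modification had a median of -0.30 over 13 tested, with Trmu at -1.23 (adjusted p 0.295 in limma), Gtpbp3 at 0.93 and Pus1 at -0.77. Their median also turned, from -0.54 with 2 genes above 0 in libraries 1 to 3 to 0.21 with 8 above 0 in libraries 4 to 6. Other genes of lowest p were Slc25a33 (-2.52) and Tfb1m (-0.47) in the list of transcription and nucleoid genes, and Mtrf1 (-1.09) and Tsfm (-1.59) among the translation factors.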

How the data were processed

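Per the submitters' processing notes, reads were processed with Trimmomatic 0.36.6, FastQC 0.72, HISAT2 2.1.0, HTSeq 0.9.1 and a DESeq2 wrapper (2.11.40.6) on the mm10 build. The sources used here do not give the annotation, strand setting or handling of multiply aligned reads. The deposited expression signal is a gene count divided by the library's size factor. The authors also deposited log2 values (rLog and VST) and a comparison table with log2 fold changes, their standard errors (other), Wald score, p-value and adjusted p-value. Its sign was wild type minus Osmr-/- for all 615 genes past 0.05 and was turned here. Osmr-/- 4 was not analysed here, and 0 columns lacked a sample.

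Each library's values were whole multiples of 1 step (100% whole, largest distance 1.4e-09), which gave back the reads and totals. The floor of 3 reads covers counting error only, since PCR copies of 1 molecule cannot be recognised without molecular identifiers.

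Genes at 10 or more normalised counts in 5 or more libraries were tested as log2(value + 1) with genotype alone in limma 3.58.1 (lmFit, eBayes with trend, two-sided, R 4.3.3), adjusted over all 13358 genes, with 0.05 as the threshold. The method was tested on simulated counts drawn without number sets, so that test does not bear on their effect. Alternatives were pseudocounts, filters, scalings, the deposited log2 values, edgeR 4.0.16, DESeq2 1.42.0, a replicate block, a covariate for label numbers, and leaving out each library. Sequences and positions came from GENCODE M21 (GRCm38, the assembly of mm10), which held all 37 genes. Names were chosen as all mRNA and rRNA genes, the tested tRNA genes, the 3 untested tRNA genes with most reads, pseudogenes of the nuclear copies, and the 3 genes of lowest p in each nuclear list. A few more are named as well-known genes of a list (Tfam, Polrmt and Lrpprc). The genes, lists and number sets were chosen with earlier results of these data known.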

Additional observations from a re-analysis of the deposited data

Results flagged for a closer look

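Values of 1 library stood far from the rest of its genotype in 17 of 76 groups examined (each group being 1 quantity in 1 genotype), where chance gives about 5% of groups. The quantities share libraries and precursors, so these values are not independent. Wild type 3 was far above the other 5 wild-type libraries for mt-Nd1 (99000 normalised counts), mt-Nd2 (23165), mt-Nd5 (61075), mt-Nd6 (23206), mt-Co3 (183) and mt-Ty (119), and for the share of complex I genes in all reads (1.88%). Without wild type 3 the log2 differences of mt-Nd1 and mt-Nd2 were 1.46 and 1.55.

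Osmr-/- 3 was far above the other Osmr-/- libraries for mt-Tw (228 normalised counts), mt-Tc (147) and mt-Tt (74.8), and for the share of plus-strand tRNA genes in all reads (0.00558%). Through mt-Ts1, wild type 6 (6125 normalised counts) and Osmr-/- 5 (8222) were far above the rest of their genotypes, also in the share of all tRNA genes in all reads (0.0599% and 0.0788%) and of minus-strand tRNA genes (0.0589% and 0.0772%).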

How the results depend on the processing

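Of 275 leave-one-out values of the tested mitochondrial genes, 268 kept direction and side of the threshold, and all 7 that turned were those of the rRNA genes. The number of these genes called was 0 in each leave-one-out fit. It was 4 with DESeq2 and 2 with the covariate for the data-derived number sets. The rRNA genes turned to -0.25 (mt-Rnr1) and -0.14 (mt-Rnr2) with quantile scaling, -0.062 and -0.095 with edgeR, and -0.053 and -0.088 with DESeq2, and mt-Rnr1 to -0.18 in libraries 4 to 6. Leaving out 1 library moved mt-Rnr1 from -0.067 to 0.51 and mt-Rnr2 from -0.21 to 0.48. Slc25a33 was at 0.014 in libraries 4 to 6. Leaving out 1 library gave a share difference of 1.34 to 2.33 points.

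Over all genes, calls higher and lower were 13 and 42 with a pseudocount of 10, 14 and 42 with quantile scaling, 13 and 69 with scaling to non-mitochondrial reads, 18 and 51 with rLog, 17 and 49 with VST, 238 and 436 with DESeq2 and 133 and 204 with the covariate. With no filter, a filter at 50 or 1 number set they were 0 and 0 (2779, 2122, 2933 and 1384 genes at an unadjusted p under 0.05), and 1 was lower with a pseudocount of 0.5 or edgeR. Leaving out 1 library gave 0 to 30 higher and 0 to 92 lower, the most without wild type 6. The cause was not tested.

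With a replicate block, limma called 0 genes higher and 0 lower (2418 at an unadjusted p under 0.05) and 0 mitochondrial genes. Deviations of same-numbered libraries correlated at 0.0203 to 0.0986, with 0 of 5 over 0.1, and 1 of 5 Osmr-/- libraries correlated best with its own number. No pairing by number was seen, but low correlations cannot show that same-numbered samples were handled apart. Low counts limit mt-Atp8, mt-Nd3, mt-Nd4l, the untested tRNA genes and 7 tested ones (mt-Ti, mt-Tq, mt-Tm, mt-Tw, mt-Ta, mt-Ty and mt-Tt), which lie under the floor of 3 reads in at least 1 library. For these 7 the only such library was wild type 1, which had the most reads of all libraries (22.1 M).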
